A study of Homo sapiens with 9 samples.

Results

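RNA was measured here for 41 genes that make, carry and remodel heparan sulfate: the syndecan and glypican core proteins, the secreted core proteins agrin and perlecan, the syndecan adaptor syntenin-1, and the enzymes that build, sulfate and trim the chains or supply their sulfate. The genes were taken by symbol from the deposited count table, and all 41 were found among its 28216 genes. The series compared prostate cancer cell lines by poly(A) RNA sequencing, with 3 libraries in each of 3 groups. PC3 cells, an androgen-insensitive line from a bone metastasis, were untreated and grown in F12K medium with 10% fetal bovine serum. LNCaP cells (clone FCG), an androgen-sensitive line from a lymph node metastasis, were first kept for 24 h in RPMI without phenol red and with 10% charcoal-stripped serum, which holds little steroid. They then had 48 h of either 10 nM dihydrotestosterone (DHT) or its vehicle, 0.01% ethanol. The labels name DHT, whereas the main text of the study names R1881 as its androgen, and the labels' name is used here. Cell line, medium, serum and androgen differed together between PC3 and LNCaP, so their parts in a difference cannot be told apart. All groups carry the label WT. The labels number the libraries of a group as replicates without saying whether they came from separate cultures, and the study's mention of independent experiments is not tied there to these libraries, so the p-values cover the spread between these libraries, which may be technical.

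Heparan sulfate is a long sugar chain that hangs from a few core proteins at the cell surface and in the matrix. It is started on a short linkage of sugars, lengthened in the Golgi by the exostosins, and then sulfated at chosen positions. The resulting pattern sets which growth factors, lipases and matrix proteins the chain binds. Syndecans span the membrane and glypicans are held by a lipid anchor, while agrin and perlecan are released into the matrix. In prostate tissue syndecan-1 is known as a surface protein of epithelial cells, and heparan sulfate as a co-receptor for fibroblast growth factors.

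The libraries held 17397706 to 25640325 gene counts each (median 21434125), and the 41 genes took 0.129 to 0.451% of them. In these libraries 3 counts, the limit that a count of 0 allows, were worth 0.118 to 0.165 CPM (counts per 1e6 counts of a library, scaled between libraries with TMM factors). Such limits and all counting intervals cover counting error only. The marker sums that follow are in CPM without TMM factors. The lines matched their names: the summed level of 4 luminal prostate markers (KLK3, KLK2, TMPRSS2 and FOLH1) was 24.4 to 39.04 CPM in PC3, where KLK2 had 0 counts. It was 7263 to 7754 CPM with DHT and 2065 to 2454 CPM with vehicle. The summed level of VIM and CD44 was 1541 to 1572 CPM in PC3 and at most 13.7 CPM in LNCaP. Of the 4 epithelial markers (KRT8, KRT18, EPCAM and CDH1), all were detected in each group, at a summed level of 451 to 462 CPM in PC3, 3263 to 3504 CPM with DHT and 1335 to 1350 CPM with vehicle. Markers of fibroblasts summed to at most 56.5 CPM, of endothelial cells to at most 19.3 CPM and of leukocytes to at most 34.2 CPM. The defining endothelial CDH5 and T cell CD3E had 0 counts in every library, and the leukocyte PTPRC had 7, 4 and 5 counts in PC3 and 0 in LNCaP. Some listed markers moved with the groups. The endothelial VWF had 1 to 2 counts in PC3, 148 to 161 with DHT and 310 to 335 with vehicle. PECAM1 had 47 to 85 in PC3 and at most 1 in LNCaP. CD68, a marker of macrophages, had 723 to 871 in PC3, 316 to 495 with DHT and 30 to 44 with vehicle. Of the fibroblast markers, COL1A1 had 842 to 1013 in PC3, 255 to 309 with DHT and 392 to 469 with vehicle. COL3A1 had 90 to 150, 1 to 4 and 16 to 20 in the same order, and LUM 12 to 26, 1 to 5 and 19 to 23. PDGFRA had 89 to 160 in PC3 and at most 1 in LNCaP, while COL1A2 and DCN had at most 6 in any library. Their part in the results was not tested.

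PC3 replicate 3 stood apart from the other PC3 libraries. In PC3, 32 heparan sulfate genes were above 3 CPM in at least 1 library. For 7 of them (21.9%) replicate 3 lay more than 0.5 on the log2 scale from the mean of replicates 1 and 2. The same held for 13.4% of all 11988 genes above 3 CPM in at least 1 PC3 library. HS6ST2, GPC4, SDC2 and PAPSS2 were lower in replicate 3, with log2 differences of -1.102, -0.78, -0.73 and -0.68, and SDC1, SULF2 and HPSE were higher, with 0.83, 0.68 and 0.51. Results that turn on it are given below without that library. Replicate 1 of both LNCaP groups held more counts of PC3 genes such as VIM than replicates 2 and 3, with values given beside SULF2 and PAPSS2.

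With DHT, the RNA of the core proteins lay below vehicle, and the enzymes went both ways. The call used here is a fold change of at least 2 with an adjusted p under 0.05 (edgeR's quasi-likelihood test, Benjamini-Hochberg over all genes tested). Of the 29 heparan sulfate genes that could be tested, 3 were called, all lower with DHT: SDC4, GPC3 and HS6ST2. Over all 11697 genes tested 14.0% were called, 6.54% higher and 7.49% lower, so 3 of 29 was close to the background. GPC3 and HS6ST2 entered the test through the vehicle libraries alone and so had to differ. Among the 27 members above 3 CPM in at least 1 library of each group 1 was called, against 11.4% of all such genes. On the adjusted p alone, 23 of the 29 differed, 10 higher and 13 lower, and over all genes this was 74.9% (37.1% higher and 37.8% lower). All 9 core proteins that passed were lower, with AGRN the tested core protein that did not pass. The median log2 fold change was -0.73 over the 10 tested core proteins and 0.014 over the 16 tested synthesis enzymes, beside -0.0068 over all genes. Without GPC3 and HS6ST2, which had to differ, it was -0.63 over 9 core proteins and 0.040 over 15 synthesis enzymes.

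Between the lines, 8 of 10 and 6 of 11 tested core proteins were called higher in PC3 against DHT-treated and vehicle-treated LNCaP. Among those above 3 CPM in at least 1 library of each group, 7 of 9 and 6 of 10 were called higher, and 1 and 2 lower. Over all genes tested, 24.0% and 22.2% were called higher. Among the enzymes, EXT1, NDST2, HS6ST2, HS3ST3A1, SULF2, HPSE and PAPSS2 were called higher in PC3 against each LNCaP group, HS6ST1 and HS3ST1 lower, and no linkage region gene higher. Against DHT-treated LNCaP, 20 of 33 tested genes were called, 15 higher and 5 lower in PC3, where 46.0% of all 12541 genes were called (24.0% higher and 22.1% lower). Against vehicle-treated LNCaP, 19 of 34 were called, 13 higher and 6 lower, where 43.2% of 12686 genes were called (22.2% higher and 21.0% lower). The adjusted p alone was passed by 29 of 33 and 29 of 34, against 84.0% and 83.4% of all genes. Genes that entered through 1 line alone, and so had to differ, numbered 7 against DHT (GPC6, HS3ST1, HS3ST3A1, HS6ST2, SULF2, HPSE and PAPSS2) and 6 against vehicle (GPC3, HS3ST1, HS3ST3A1, SULF2, HPSE and PAPSS2). Without them 13 of 26 and 13 of 28 were called, against 36.1% and 32.7% of all genes above 3 CPM in both. The median log2 fold change over the members above 3 CPM in both was 0.37 and 0.29. With the members that entered through 1 line alone it was 0.73 and 0.37, and over all genes tested 0.036 and 0.026. Both comparisons use the same PC3 libraries, and each shares its LNCaP libraries with the DHT comparison, so they are given side by side and not as support for each other.

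**Figure D1:**
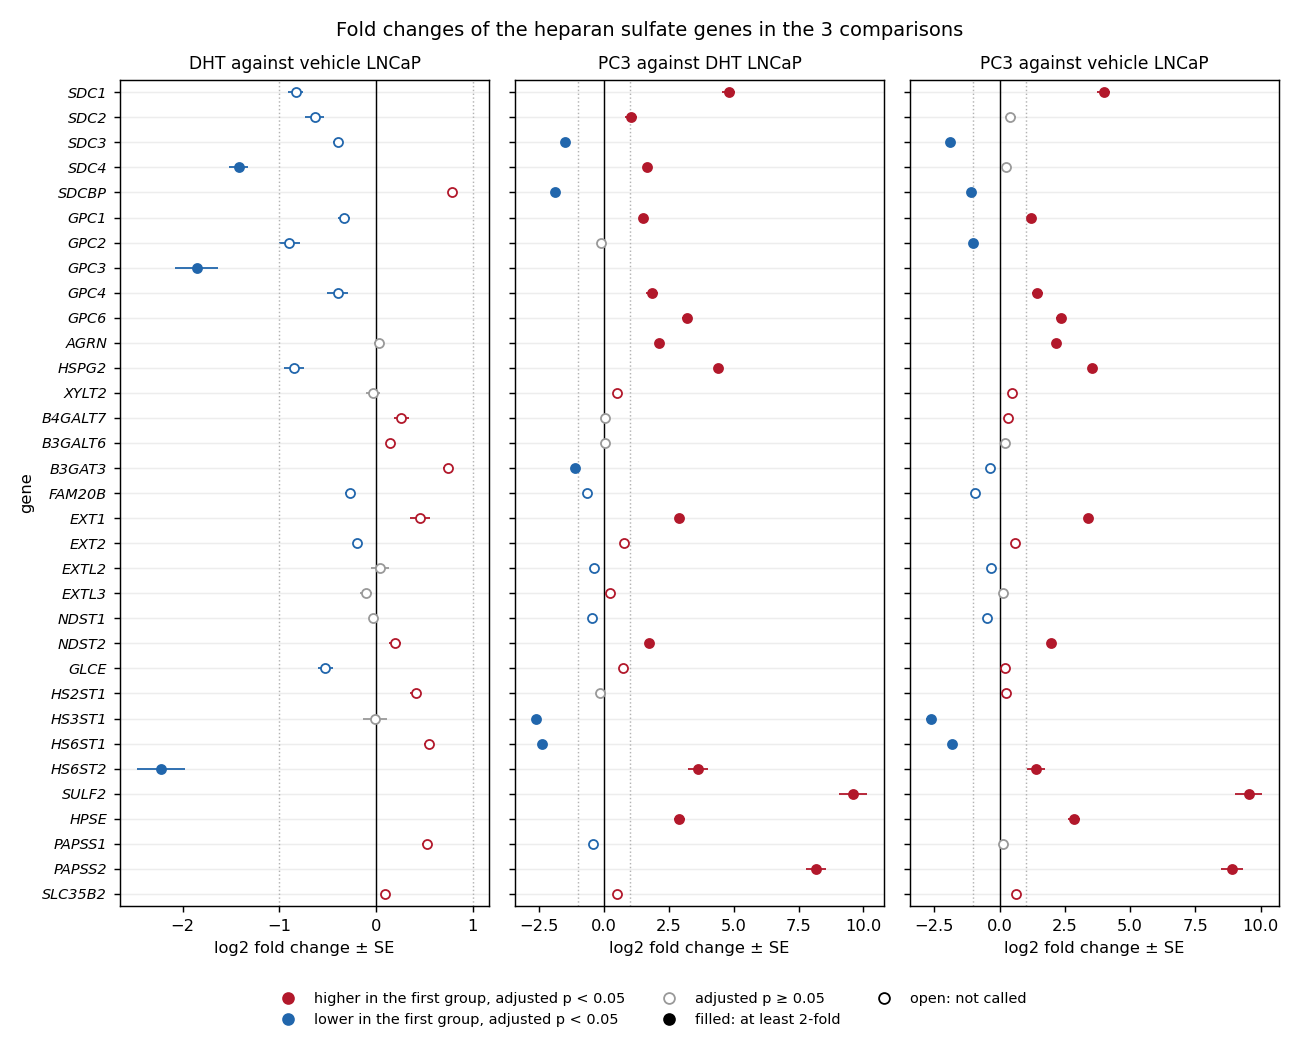
Log2 fold change ± standard error (x axis; the scale differs between panels) of each tested heparan sulfate gene (y axis) with DHT against vehicle in LNCaP, and in PC3 against each LNCaP group. Filled points are at least 2-fold and called, open points are not called, grey points have an adjusted p of at least 0.05, and genes with at most 3 counts in a group (GPC3 in PC3, HS3ST3A1 in LNCaP) are not drawn. In the left panel the core proteins lie left of 0 except AGRN, SDCBP lies right and the enzymes on both sides, and SULF2 and PAPSS2 lie farthest right in both PC3 panels.

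To show the DNA beside these changes, which are given gene by gene below, the 250 bases before the RefSeq transcription start (GRCh38.p14, minus strand, written 5′ to 3′) are given for SDC1 and SDC4, which fell with DHT, and for HS6ST1 and PAPSS1, a sulfotransferase and a sulfate donor enzyme that rose. None of these 4 windows overlaps an annotated exon. Capitals mark the GC box letters GGGCGG or, on the other strand, CCGCCC, with overlapping matches counted.
SDC1 chr2:20225476-20225725: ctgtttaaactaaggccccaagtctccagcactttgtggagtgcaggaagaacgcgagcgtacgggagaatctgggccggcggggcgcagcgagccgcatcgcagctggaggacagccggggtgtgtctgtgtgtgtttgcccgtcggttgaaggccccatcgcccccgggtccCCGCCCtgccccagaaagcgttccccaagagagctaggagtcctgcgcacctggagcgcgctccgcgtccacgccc
SDC4 chr20:45348425-45348674: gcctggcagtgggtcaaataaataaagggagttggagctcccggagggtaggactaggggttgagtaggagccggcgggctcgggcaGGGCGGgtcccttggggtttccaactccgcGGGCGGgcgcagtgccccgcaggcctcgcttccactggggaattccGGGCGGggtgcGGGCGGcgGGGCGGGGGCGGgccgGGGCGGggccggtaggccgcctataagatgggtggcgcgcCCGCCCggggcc
HS6ST1 chr2:128318869-128319118: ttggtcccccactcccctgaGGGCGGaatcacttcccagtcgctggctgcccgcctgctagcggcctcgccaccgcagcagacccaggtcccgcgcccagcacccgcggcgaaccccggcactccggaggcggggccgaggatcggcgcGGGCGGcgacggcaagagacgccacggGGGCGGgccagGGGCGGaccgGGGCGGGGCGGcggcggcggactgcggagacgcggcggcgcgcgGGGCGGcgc
PAPSS1 chr4:107720235-107720484: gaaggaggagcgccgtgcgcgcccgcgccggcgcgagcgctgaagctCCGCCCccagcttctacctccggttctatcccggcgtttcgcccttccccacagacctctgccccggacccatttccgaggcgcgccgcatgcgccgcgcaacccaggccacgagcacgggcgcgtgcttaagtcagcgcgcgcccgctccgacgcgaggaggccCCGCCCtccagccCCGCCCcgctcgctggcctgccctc
The printed SDC1 window held 1 match, SDC4 8, HS6ST1 7 and PAPSS1 3. SDC1 has another RefSeq start, whose window (chr2:20225131-20225380) is not printed and also held 1 match. A RefSeq window was at hand for 33 of the 41 genes, with 45 windows in all, and 35 of the 45 held the GC box letters, against 42.6% of the 35116 windows of all genes. The letters AGAACA or TGTTCT, a core that steroid receptors are known to bind, were in 12.4% of all windows and in those of 2 members, EXT2 and HPSE. A match is a description of the letters only, and windows without it say nothing about binding.

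Syndecan-1 RNA was far higher in PC3 than in LNCaP, and syndecan-3 RNA lower. SDC1 encodes syndecan-1 (chromosome 2, 20200797 to 20225433, GRCh38, minus strand). It stood at 744, 811 and 1387 CPM in PC3 replicates 1 to 3, at 39.8, 33.2 and 32.6 CPM with DHT and at 67.0, 59.5 and 62.0 CPM with vehicle, so no groups overlapped and PC3 replicate 3 was the highest. The log2 fold change was 4.80 ± 0.27 (adjusted p = 9.91e-07) in PC3 against DHT and 3.98 ± 0.25 (adjusted p = 1.99e-06) against vehicle. With DHT against vehicle it was -0.83 ± 0.077 (adjusted p = 4.85e-07), which is a 1.78-fold fall and short of the fold limit. SDC3, a syndecan best known from neural tissue (chromosome 1, 30869466 to 30908758), ran the other way between the lines, at 18.2, 21.7 and 18.6 CPM in PC3, 54.7, 59.1 and 55.1 CPM with DHT and 70.4, 75.0 and 76.4 CPM with vehicle. Its PC3 libraries were all below the LNCaP libraries, with -1.53 ± 0.10 (adjusted p = 1.90e-06) against DHT and -1.90 ± 0.091 (adjusted p = 5.21e-07) against vehicle. DHT lowered it by a small step, -0.39 ± 0.049 (adjusted p = 9.16e-06).

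SDC4 and SDC2 fell with DHT, and how far PC3 stood above LNCaP depended on the LNCaP group it was set against. SDC4, a widely expressed syndecan found at focal adhesions (chromosome 20, 45325288 to 45348424), had 65.5, 59.6 and 79.4 CPM in PC3, 25.3, 21.0 and 19.4 CPM with DHT and 56.5, 66.7 and 53.4 CPM with vehicle. It was 2.68-fold lower with DHT, -1.42 ± 0.10 (adjusted p = 3.30e-08). PC3 differed from DHT-treated LNCaP by 1.64 ± 0.14 (adjusted p = 1.26e-05) but not detectably from vehicle-treated LNCaP, 0.24 ± 0.12 (adjusted p = 0.101), where the PC3 and vehicle libraries overlapped. SDC2, the fibroglycan (chromosome 8, 96493813 to 96611790), had 28.4, 34.9 and 19.0 CPM in PC3, 14.0, 15.3 and 11.4 CPM with DHT and 21.5, 21.3 and 20.4 CPM with vehicle. It was lower with DHT, -0.63 ± 0.10 (adjusted p = 6.22e-05). In PC3 it was just past the fold limit against DHT, 1.02 ± 0.23 (adjusted p = 0.00377), and not detectably different from vehicle, 0.41 ± 0.21 (adjusted p = 0.102). PC3 replicate 3 lay below every vehicle library. The call against DHT rested on single libraries: the log2 fold change was 0.99 without PC3 replicate 1, 0.80 without PC3 replicate 2, 0.90 without DHT replicate 3 and 1.22 without PC3 replicate 3. With the replicate number as a block it was 0.99.

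SDCBP encodes syntenin-1, the adaptor that binds syndecan tails and leads them into endosomes and exosomes (chromosome 8, 58552924 to 58582859). It stood at 53.7, 64.1 and 52.1 CPM in PC3, 209, 222 and 208 CPM with DHT and 121, 128 and 122 CPM with vehicle, 3 ranges that did not overlap. It rose 1.73-fold with DHT, 0.79 ± 0.042 (adjusted p = 2.12e-09), while every syndecan fell. It was lower in PC3, -1.90 ± 0.10 (adjusted p = 6.27e-07) against DHT and -1.096 ± 0.094 (adjusted p = 1.30e-05) against vehicle.

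**Figure D2:**
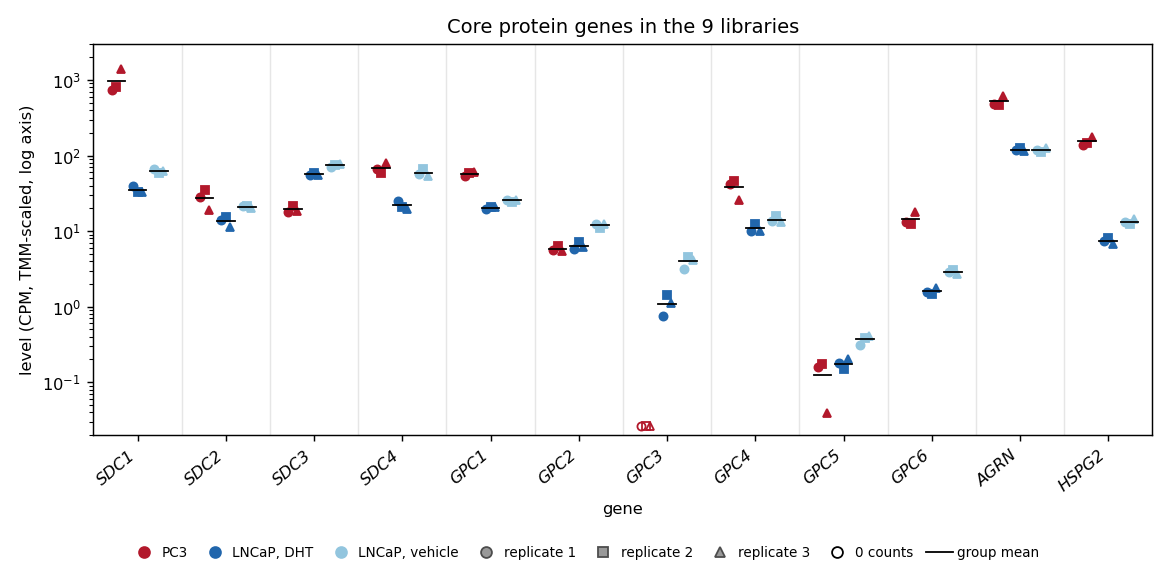
Level of the 12 core protein genes (TMM-scaled CPM, log axis) in the 9 libraries; colours mark the groups, symbols the replicates, bars the group means, and open symbols at the lower edge libraries with 0 counts. SDC1 in PC3 lies between 744 and 1387 CPM, above all LNCaP libraries, GPC3 has 0 counts in PC3, and each syndecan lies lower with DHT than with vehicle.

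The glypicans split between the lines: GPC1, GPC4 and GPC6 were higher in PC3, GPC3 was seen in LNCaP and had 0 counts in PC3, and the 4 that could be tested fell with DHT. GPC1, the most widely expressed glypican (chromosome 2, 240435663 to 240468076), had 52.9, 58.6 and 60.8 CPM in PC3, 19.6, 20.9 and 20.6 CPM with DHT and 26.1, 24.6 and 26.1 CPM with vehicle. Its log2 fold change was 1.501 ± 0.079 (adjusted p = 7.50e-07) in PC3 against DHT, 1.19 ± 0.078 (adjusted p = 2.74e-06) against vehicle and -0.33 ± 0.064 (adjusted p = 3.97e-04) with DHT. The PC3 libraries lay well above all others and the DHT libraries just below vehicle. GPC4, known for its part in synapse formation (chromosome X, 133300103 to 133415489), had 42.2, 46.7 and 25.9 CPM in PC3, 10.1, 12.5 and 9.93 CPM with DHT and 13.5, 15.9 and 13.4 CPM with vehicle. Its PC3 replicate 3 was the lowest of PC3 but still above LNCaP, with 1.83 ± 0.23 (adjusted p = 1.29e-04) against DHT, 1.45 ± 0.22 (adjusted p = 4.28e-04) against vehicle and -0.39 ± 0.11 (adjusted p = 0.00531) with DHT. In 1 fit of all 9 libraries, GPC4 did not pass with DHT (adjusted p = 0.131). GPC6, its close relative (chromosome 13, 93226807 to 94408020), stood at 13.1, 12.6 and 18.0 CPM in PC3, 1.57, 1.48 and 1.76 CPM with DHT and 2.88, 3.07 and 2.74 CPM with vehicle. PC3 was higher by 3.18 ± 0.19 (adjusted p = 1.31e-06) and 2.35 ± 0.17 (adjusted p = 4.94e-06). GPC6 was above 3 CPM in fewer than 3 LNCaP libraries and so was not tested for DHT.

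GPC3, an oncofetal glypican that binds Hedgehog and WNT ligands (chromosome X, 133535745 to 133987100), had 61, 83 and 82 counts with vehicle, 17, 29 and 22 counts with DHT and 0 counts in all 3 PC3 libraries. DHT lowered it 3.62-fold, -1.86 ± 0.23 (adjusted p = 6.83e-06). Against a limit of 3 counts over the PC3 group, GPC3 was at least 97.5-fold lower in PC3 than with vehicle and at least 26.8-fold lower than with DHT, and the former was called (adjusted p = 1.29e-05). GPC2, a glypican of the developing nervous system (chromosome 7, 100169606 to 100177381), had 5.59, 6.26 and 5.53 CPM in PC3, 5.87, 7.21 and 6.10 CPM with DHT and 12.4, 11.03 and 12.2 CPM with vehicle. It fell with DHT, -0.90 ± 0.11 (adjusted p = 6.06e-06), and PC3 overlapped the DHT libraries, -0.14 ± 0.13 (adjusted p = 0.361), while lying below vehicle, -1.01 ± 0.12 (adjusted p = 7.21e-05). That call sat on the fold limit, since the log2 fold change was -0.998 without PC3 replicate 3, -0.98 without vehicle replicate 1 and -0.995 without vehicle replicate 3. GPC5 was near the detection limit everywhere, with 1 to 8 counts per library, and was not tested. HS6ST2, described below, GPC4 and GPC3 lie in that order on the X chromosome.

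Perlecan and agrin were higher in PC3, and perlecan fell with DHT while agrin showed no detectable change. HSPG2 encodes perlecan, the large proteoglycan of basement membranes (chromosome 1, 21822244 to 21937310). It had 137, 147 and 177 CPM in PC3, 7.39, 8.05 and 6.65 CPM with DHT and 13.1, 12.3 and 14.3 CPM with vehicle, so PC3 lay 20.9-fold above DHT and 11.8-fold above vehicle. The log2 fold changes were 4.38 ± 0.12 (adjusted p = 4.58e-08) and 3.56 ± 0.11 (adjusted p = 7.17e-08), and -0.84 ± 0.10 (adjusted p = 7.12e-06) with DHT. AGRN, agrin, which organises the neuromuscular synapse and is found in many basement membranes (chromosome 1, 1020120 to 1056118), had 485, 473 and 618 CPM in PC3, 119, 127 and 114 CPM with DHT and 117, 111 and 125 CPM with vehicle. PC3 was higher by 2.13 ± 0.11 (adjusted p = 7.11e-07) and 2.18 ± 0.11 (adjusted p = 7.12e-07). The LNCaP groups overlapped, 0.032 ± 0.053 (adjusted p = 0.603).

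Per length of gene, the core protein RNA of PC3 was mostly SDC1, whereas no core protein held such a share in LNCaP. Levels per kb of exon (CPM per kb) can be compared between genes, and they summed over the 12 core proteins to 384 ± 107 in PC3, 48.6 ± 2.78 with DHT and 78.8 ± 1.64 with vehicle (SD, n = 3). SDC1 made up 69.6% ± 5.31 of this sum in PC3, 20.1% ± 1.72 with DHT and 22.1% ± 1.60 with vehicle. AGRN followed in PC3 with 13.0% ± 1.56. With DHT the highest share was that of AGRN, 23.03% ± 0.909, and with vehicle that of SDC4, 28.5% ± 2.78. HSPG2, a very long gene, came to 2.26% ± 0.292 in PC3, 0.836% ± 0.0469 with DHT and 0.927% ± 0.0864 with vehicle.

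Within the syndecans alone, SDC1 was 87.8% ± 2.88 of the level per kb in PC3, 33.1% ± 1.64 with DHT and 31.4% ± 2.58 with vehicle. SDC4 was 8.81% ± 1.60, 28.4% ± 1.69 and 40.5% ± 3.20, so it led in vehicle-treated LNCaP, while with DHT its 3 libraries lay below SDC1. SDC3 was 0.961% ± 0.296 in PC3, 27.2% ± 2.54 with DHT and 18.9% ± 1.21 with vehicle. Among the glypicans GPC1 was 44.01% ± 5.44 in PC3, 41.3% ± 2.27 with DHT and 33.8% ± 1.52 with vehicle, and GPC4 was 37.97% ± 8.46, 28.8% ± 1.65 and 24.7% ± 2.15. In PC3 the shares of GPC1 and GPC4 overlapped, and their order reversed in replicate 3. GPC2 took 7.51% ± 0.247 in PC3 and 26.7% ± 2.05 with vehicle. These shares were not tested. With the longest transcript as the length, the GPC1 shares were 56.2% in PC3, 50.2% with DHT and 41.3% with vehicle.

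**Figure D3:**
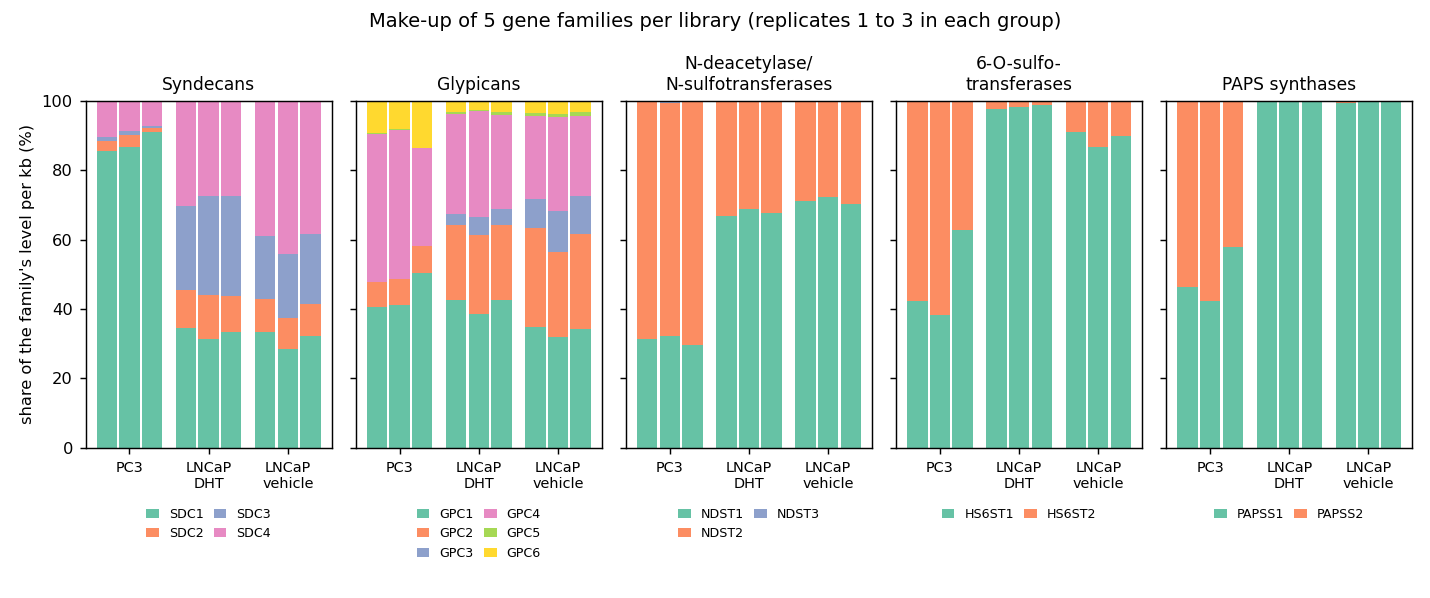
Share of each gene in its family's summed level per kb (y axis, percent) in each library; every bar is 1 library, in the order replicates 1 to 3 within PC3, DHT-treated and vehicle-treated LNCaP. SDC1 fills 85.6 to 91.1% of the syndecan bars in PC3 and 28.5 to 34.6% in LNCaP, NDST2 outweighs NDST1 in PC3 and not in LNCaP, and HS6ST2 and PAPSS2 are large shares in PC3 only.

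Of the 6 linkage region genes, B3GAT3 alone was called, and only against DHT. These enzymes place the xylose, the galactoses and the glucuronic acid on which both heparan and chondroitin sulfate start. B3GAT3, the glucuronyltransferase that completes the linkage (chromosome 11, 62615296 to 62622154), had 26.8, 27.0 and 32.7 CPM in PC3, 64.6, 60.3 and 62.5 CPM with DHT and 37.5, 36.7 and 37.7 CPM with vehicle, with no overlap between groups. It rose with DHT by 0.75 ± 0.049 (adjusted p = 1.78e-08), short of the fold limit, and was lower in PC3, -1.11 ± 0.092 (adjusted p = 9.77e-06) against DHT and -0.35 ± 0.090 (adjusted p = 0.00725) against vehicle. Of its 74-nt stretches, the read length, 5.96% are repeated at another place, so a part of its counts is uncertain. The others were never called. XYLT2, the xylosyltransferase of most tissues, had log2 fold changes of -0.033 with DHT and 0.51 and 0.49 in PC3 against DHT and vehicle. B4GALT7, the galactosyltransferase that follows it, had log2 fold changes of 0.26, 0.043 and 0.32 in the same order, and B3GALT6, which adds the next galactose, had 0.14, 0.031 and 0.19. FAM20B, the kinase that phosphorylates the xylose, had log2 fold changes of -0.27, -0.68 and -0.93, and without PC3 replicate 2 the last value was -1.02 and reached the fold limit. The adjusted p was past 0.05 for XYLT2 with DHT, for B4GALT7 in PC3 against DHT and for B3GALT6 in both PC3 comparisons, and under it for the rest. Of the reads on B3GALT6, 4.42% lay on the other strand and were not counted, and its pass with DHT depended on that. With unstranded counts the log2 fold change was 0.034 (adjusted p = 0.445), and in 1 fit of all 9 libraries it was 0.14 (adjusted p = 0.147). XYLT1, the other xylosyltransferase, had at most 2 counts in any library, which is under the limit that a count of 0 allows.

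EXT1 stood out among the chain polymerising genes. It encodes a subunit of the polymerase that lengthens the chain together with EXT2 (chromosome 8, 117794490 to 118111826), and had 122, 115 and 109 CPM in PC3, 17.2, 15.5 and 13.7 CPM with DHT and 10.7, 11.2 and 12.0 CPM with vehicle. PC3 was 7.45-fold and 10.4-fold higher, 2.90 ± 0.11 (adjusted p = 1.45e-07) and 3.37 ± 0.082 (adjusted p = 2.47e-08), and DHT raised it by 0.46 ± 0.10 (adjusted p = 0.00115). EXT2 was closer between the groups, with log2 fold changes of 0.75 against DHT and 0.58 against vehicle in PC3 and -0.19 with DHT, all with an adjusted p under 0.05 and none called. Per kb, EXT1 was at 10.7 ± 0.612 and EXT2 at 4.38 ± 0.223 CPM per kb in PC3, and the order was reversed in LNCaP, at 1.44 ± 0.164 and 2.61 ± 0.0398 with DHT and 1.05 ± 0.0632 and 2.99 ± 0.110 with vehicle. EXTL3, which adds the sugar that commits the chain to heparan sulfate, had log2 fold changes of 0.24, 0.15 and -0.11 in the same order, and EXTL2, which can end chains early, had -0.38, -0.32 and 0.040. EXTL3 passed the adjusted p against DHT alone and EXTL2 in both PC3 comparisons, and 10.8% of the reads on EXTL2 lay on the other strand and were not counted. EXTL1 had 0, 3 and 2 counts in PC3, 9, 3 and 8 with DHT and 15, 17 and 12 with vehicle, and stayed below the filter.

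The N-deacetylase/N-sulfotransferases open the way for all later sulfation, and the leading gene differed between the lines. NDST2 (chromosome 10, 73801911 to 73811798) had 105, 98.8 and 121 CPM in PC3, 33.1, 30.5 and 33.6 CPM with DHT and 28.8, 26.8 and 29.0 CPM with vehicle. It was higher in PC3 by 1.74 ± 0.087 (adjusted p = 5.65e-07) and 1.96 ± 0.086 (adjusted p = 3.26e-07) and rose with DHT by 0.20 ± 0.063 (adjusted p = 0.0116), which did not pass in 1 fit of all 9 libraries (adjusted p = 0.0656). NDST1 went the other way between the lines, lower in PC3, -0.48 ± 0.054 and -0.49 ± 0.053, and showed no detectable change with DHT, -0.029 ± 0.038 (adjusted p = 0.493). Per kb, NDST2 was 68.6% ± 1.52 of the NDST RNA in PC3, 32.2% ± 1.08 with DHT and 28.8% ± 0.898 with vehicle, with NDST1 nearly all of the rest. NDST2 is uncertain as a gene, because 79.6% of its 74-nt stretches are shared with the overlapping readthrough gene ENSG00000272916. NDST3 had 20, 26 and 13 counts in PC3 and 0 in all LNCaP libraries. At the limit of 3 counts over the group, that is at least 16.7-fold above DHT and 15.2-fold above vehicle, at a level below the filter.

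GLCE, the epimerase that turns glucuronic into iduronic acid, fell with DHT, -0.52 ± 0.080 (adjusted p = 5.48e-05). In PC3 it was higher by 0.73 against DHT and 0.22 against vehicle. HS2ST1, which sulfates that iduronic acid, rose with DHT by 0.41 ± 0.055 (adjusted p = 1.61e-05), and PC3 lay between the LNCaP groups, at 61.4 ± 1.61 CPM (SD, n = 3) beside 69.2 ± 4.104 with DHT and 52.2 ± 1.71 with vehicle. Its difference from vehicle was 0.26 (adjusted p = 0.00333) and from DHT -0.17 (adjusted p = 0.0549). Of its 74-nt stretches 7.55% are shared with the overlapping gene ENSG00000267561.

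The 6-O-sulfotransferases changed in opposite directions in each comparison. HS6ST1 (chromosome 2, 128236716 to 128318868), whose upstream window is printed above, had 9.99, 9.44 and 11.2 CPM in PC3, 53.6, 54.3 and 54.7 CPM with DHT and 36.1, 37.8 and 37.4 CPM with vehicle. The 3 groups did not overlap: PC3 was lower, -2.41 ± 0.083 (adjusted p = 1.02e-07) and -1.84 ± 0.085 (adjusted p = 4.40e-07), and DHT raised it 1.46-fold, 0.55 ± 0.047 (adjusted p = 2.28e-07). Of its 74-nt stretches 39.5% also occur elsewhere, among them in the pseudogene HS6ST1P1, so its counts are uncertain. HS6ST2 (chromosome X, 132626015 to 132961395) had 14.0, 15.6 and 6.83 CPM in PC3, 1.25, 0.987 and 0.706 CPM with DHT and 3.62, 6.04 and 4.42 CPM with vehicle. It was 4.68-fold lower with DHT, -2.23 ± 0.25 (adjusted p = 3.00e-06). PC3 was higher by 3.61 ± 0.39 (adjusted p = 5.03e-05) and 1.40 ± 0.34 (adjusted p = 0.00510), with replicate 3 at the low end of PC3 and close to the highest vehicle library. Per kb, HS6ST2 was 52.2% ± 13.1 of the pair in PC3, 1.73% ± 0.492 with DHT and 10.9% ± 2.33 with vehicle, and in PC3 replicate 3 alone it was 37.3%.

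The 3-O-sulfotransferases add the rarest mark of the chain, the one that antithrombin needs. HS3ST1 (chromosome 4, 11393150 to 11429564) had 0.787, 0.783 and 1.11 CPM in PC3, 5.06, 5.73 and 5.95 CPM with DHT and 5.92, 5.93 and 5.03 CPM with vehicle. PC3 was lower, -2.63 ± 0.18 (adjusted p = 2.83e-06) and -2.62 ± 0.18 (adjusted p = 3.38e-06), and the LNCaP groups overlapped, -0.012 ± 0.12 (adjusted p = 0.933). HS3ST3A1, an isoform that can make the site for herpesvirus entry (chromosome 17, 13494032 to 13601929), had 136, 123 and 173 counts in PC3, 0, 1 and 0 with DHT and 0, 0 and 2 with vehicle. It was called higher in PC3 in both comparisons (adjusted p = 7.67e-07 and 2.06e-06), and with 1 and 2 LNCaP counts the ratio of summed counts was 366 (95% exact interval 65.3 to 14483) against DHT and 167 (95% exact interval 45.9 to 1383) against vehicle. DHT replicate 2 and vehicle replicate 3 held those counts, and without them the other LNCaP libraries were at 0. Its neighbour in sequence HS3ST3B1, which shares 8.88% of its 74-nt stretches with it, had 3 to 17 counts per library and was not tested. HS3ST2, an isoform of the brain, had at most 2 counts.

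**Figure D4:**
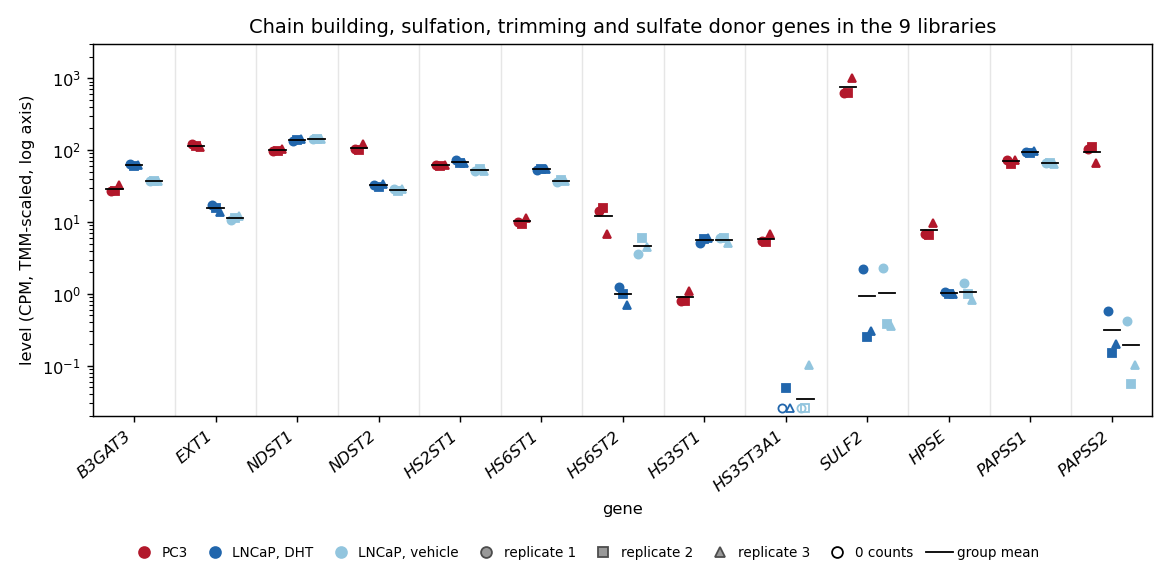
Level of 13 enzyme genes (TMM-scaled CPM, log axis) in the 9 libraries; colours mark the groups, symbols the replicates, bars the group means, and open symbols at the lower edge libraries with 0 counts. SULF2 and PAPSS2 lie orders of magnitude higher in PC3, and their 2 replicate 1 libraries of LNCaP lie above replicates 2 and 3. HS6ST1 is lowest and HS6ST2 highest in PC3.

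SULF2, HPSE and PAPSS2, the last given with the sulfate donor genes below, were tested through their PC3 libraries alone, so their calls were bound to be higher in PC3. SULF2 encodes an extracellular sulfatase that removes 6-O-sulfates from finished chains (chromosome 20, 47656197 to 47786616). It had 632, 634 and 1011 CPM in PC3, and 50, 5 and 6 counts with DHT and 44, 7 and 7 counts with vehicle. The log2 fold change was 9.60 ± 0.55 (adjusted p = 1.20e-06) against DHT and 9.55 ± 0.52 (adjusted p = 9.78e-07) against vehicle, which rest on few LNCaP counts. Most of those counts lay in replicate 1 of each LNCaP group, and without it the values were 11.42 and 11.01. In the same libraries VIM, a marker of PC3, had 272 counts with DHT and 75 with vehicle, against 143 and 106, and 23 and 32, in replicates 2 and 3. SULF2 in LNCaP replicate 1 came to 0.295% and 0.304% of the PC3 level and VIM to 1.01% and 0.325%, and the part of PC3 RNA in these counts was not tested. Whether fewer cells held a transcript or each held less of it cannot be told apart in such bulk RNA, here and for the other members. SULF1, its homologue, had 8, 8 and 14 counts in PC3 and at most 3 in any LNCaP library, and SULF2 was 99.96% of the pair per kb in PC3. HPSE, heparanase, which cleaves the chains (chromosome 4, 83292461 to 83335153), had 6.77, 6.61 and 9.60 CPM in PC3, 1.07, 0.987 and 1.01 CPM with DHT and 1.42, 0.988 and 0.813 CPM with vehicle. PC3 was higher by 2.90 ± 0.21 (adjusted p = 4.01e-06) and 2.85 ± 0.25 (adjusted p = 1.38e-05).

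The sulfate donor genes supply PAPS, the activated sulfate that every sulfotransferase uses. PAPSS1, a PAPS synthase, rose with DHT by 0.52 ± 0.045 (adjusted p = 2.24e-07), from 66.7, 66.9 and 63.4 CPM to 95.4, 90.5 and 97.1 CPM, and PC3, at 71.8, 65.0 and 73.7 CPM, was lower than DHT, -0.42 ± 0.066 (adjusted p = 4.46e-04), and overlapped vehicle, 0.12 ± 0.065 (adjusted p = 0.121). PAPSS2, the other synthase (chromosome 10, 87659613 to 87747705), had 104, 111 and 67.2 CPM in PC3 and 13, 3 and 4 counts with DHT and 8, 1 and 2 counts with vehicle. PC3 was higher by 8.18 ± 0.38 (adjusted p = 3.88e-07) and 8.91 ± 0.41 (adjusted p = 4.32e-07). As for SULF2, LNCaP replicate 1 held most of the counts, and without it the values were 9.05 and 10.15. With unstranded counts the value against vehicle was 7.76. Per kb, PAPSS2 was 51.1% ± 8.07 of the pair in PC3, and 0.260% ± 0.195 with DHT. SLC35B2, the carrier that brings PAPS into the Golgi, stayed short of the fold limit, with 0.51 and 0.63 in PC3 and 0.10 with DHT (adjusted p = 7.36e-05, 1.85e-05 and 0.0483).

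Across the 3 comparisons, 22 members were called at least once, 12 were tested and never called, and 7 (GPC5, XYLT1, EXTL1, NDST3, HS3ST2, HS3ST3B1 and SULF1) passed the filter in no comparison. The share of all genes called at least once was not computed, so these counts have no background beside them. Per kb the highest member was SDC1 in PC3, at 271 ± 97.8 CPM per kb, followed by SULF2 at 109 ± 31.3. With DHT it was SDCBP, at 44.5 ± 1.62.

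Other genes of the pathway were counted from lists of their own. Of 13 further heparan sulfate genes (proteoglycans such as SPOCK1 to SPOCK3, SRGN and COL18A1, and rarer enzymes), 1 of 4 tested was called with DHT (higher), and in PC3 5 of 7 against DHT (4 higher and 1 lower) and 6 of 7 against vehicle (5 higher and 1 lower). Of those tested, 1, 3 and 4 entered through 1 group alone (SPOCK1, SPOCK3, SRGN and HS3ST5 in at least 1 comparison) and so had to differ. Among the genes above 3 CPM in both groups 0 of 3, 2 of 4 and 2 of 3 were called, against 11.4%, 36.1% and 32.7% of all such genes, with median log2 fold changes of -0.42, 0.74 and 0.32. SPOCK1, which encodes testican-1, a secreted proteoglycan, rose from 12, 10 and 16 counts with vehicle to 263, 383 and 303 with DHT, 4.51 ± 0.24 (adjusted p = 1.94e-09), the reverse of the core proteins above. HS3ST5, a 3-O-sulfotransferase outside the members, had 399, 400 and 470 counts in PC3, 1 count in a single DHT library and 0 with vehicle, and was called in both (adjusted p = 1.06e-07 and 9.44e-07), at least 327-fold higher than vehicle. Against DHT its ratio of summed counts was 1075 (95% exact interval 193 to 42479).

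Of 9 genes of precursor supply, the sugar nucleotide and sulfate pathways, 0 of 8 tested were called with DHT, 4 of 9 (2 higher and 2 lower) in PC3 against DHT, and 4 of 9 (3 higher and 1 lower) against vehicle, beside 14.0%, 46.0% and 43.2% of all genes, so the shares between the lines were close to the background. SLC35D1 entered both PC3 comparisons through 1 line alone, and the median log2 fold changes without it were 0.30, 0.0019 and 0.47. On the adjusted p alone 7 of the 8 passed with DHT, all higher, where 74.9% of all genes passed. SLC35D1, a carrier of UDP-sugars into the endoplasmic reticulum, had 231, 228 and 277 counts in PC3, 2, 0 and 2 with DHT and 1, 0 and 0 with vehicle, a log2 fold change of 7.17 ± 0.34 (adjusted p = 4.07e-07) against DHT and a ratio of 569 (95% exact interval 102 to 22502) against vehicle. BPNT2, under its older name in the table, hydrolyses the spent sulfate donor in the Golgi. It was not among the genes the naming rule chose and was picked after its values were seen: it was lower in PC3, -2.08 ± 0.072 (adjusted p = 1.03e-07) against DHT and -1.80 ± 0.059 (adjusted p = 7.95e-08) against vehicle, while PAPSS2 was higher.

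Chondroitin and dermatan sulfate, which start on the same linkage, had 16 listed genes. With DHT 4 of 11 tested were called (2 higher and 2 lower), in PC3 8 of 15 against DHT and 8 of 14 against vehicle (7 higher and 1 lower in each). Of those tested, 2, 6 and 3 entered through 1 group alone and so had to differ, CSGALNACT1 and CHSY3 among them. Among the genes above 3 CPM in both groups 2 of 9, 2 of 9 and 5 of 11 were called, against 11.4%, 36.1% and 32.7% of all such genes, with median log2 fold changes of 0.41, 0.25 and 0.84. CSGALNACT1, the enzyme that commits a linkage to chondroitin sulfate, rose from 13, 13 and 14 counts with vehicle to 1181, 1132 and 1201 with DHT, 6.32 ± 0.11 (adjusted p = 1.02e-13). CHSY3, a chondroitin synthase, had 189, 212 and 217 counts in PC3, 6, 2 and 2 with DHT and 0, 1 and 2 with vehicle, 5.67 ± 0.29 (adjusted p = 6.12e-07) against DHT and a ratio of 159 (95% exact interval 54.2 to 774) against vehicle.

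Lysosomal breakdown had 9 listed genes, all tested. With DHT 1 was called (higher), and in PC3 6 against DHT (2 higher and 4 lower) and 5 against vehicle (2 higher and 3 lower). Over all genes tested, 14.0%, 46.0% and 43.2% were called in these comparisons. Without ARSG, which entered both PC3 comparisons through LNCaP alone, the counts in PC3 were 5 and 4 of 8, beside 36.1% and 32.7% of all genes above 3 CPM in both groups. The median log2 fold changes over the genes above 3 CPM in both groups were 0.49, -0.44 and -0.44. ARSG, a lysosomal sulfatase that acts on heparan sulfate, led each comparison: 23, 17 and 14 counts in PC3, 1167, 1220 and 1167 with DHT and 485, 478 and 537 with vehicle, 1.12 ± 0.062 (adjusted p = 3.10e-09) with DHT, -6.27 ± 0.15 (adjusted p = 2.49e-08) in PC3 against DHT and -5.13 ± 0.16 (adjusted p = 6.26e-08) against vehicle. Of 12 heparin-binding growth factors and lipases, 1 of 3 tested was called with DHT (higher), 5 of 5 in PC3 against DHT (4 higher and 1 lower) and 4 of 5 against vehicle (all higher). FGF1 and FGF2 entered both PC3 comparisons through PC3 alone and so had to differ. Without them 3 of 3 and 2 of 3 were called, with medians of 2.81 and 2.29. Of all genes above 3 CPM in both groups, 11.4% were called with DHT, and 36.1% and 32.7% in PC3. So few genes say little about the list. VEGFA, the vascular growth factor, rose with DHT from 1606, 1834 and 1853 to 5914, 8205 and 6659 counts, 1.85 ± 0.12 (adjusted p = 1.17e-08). FGF2, which signals with heparan sulfate as co-receptor, had 1891, 1580 and 1667 counts in PC3 and at most 5 in any LNCaP library, 8.72 ± 0.18 (adjusted p = 1.57e-08) against DHT. FGF1 had 207, 206 and 129 counts in PC3 and 0 with vehicle, at least 139.7-fold higher at the limit of 3 counts over the group (adjusted p = 4.51e-05).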

How the data were processed

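Poly(A) RNA was sequenced as 74-nt single reads from 9 libraries. The authors trimmed the reads, mapped them to hg38 with STAR and counted them per gene; the submitters' processing notes list cutadapt 4.1, STAR 2.7.7a and UMI-tools 1.1.2, and the annotation is not given in the sources used here. The deposited values are raw counts, and 253944 of 253944 values in the series table equal the forward-strand column of the libraries' own files. Rows that name no gene (20.3 to 25.4% of a library) were left out. Library totals ran from 17397706 to 25640325 counts, which gives genes of a few counts little precision. Levels were computed as CPM with TMM factors, and levels per kb with the summed exon length in GENCODE's annotation of hg38. The marker sums alone are in CPM without TMM factors.

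Each comparison was fitted on its 6 libraries with the quasi-likelihood test of edgeR 4.0.16 (R 4.3.3), for genes above 3 CPM in at least 3 of these libraries, with Benjamini-Hochberg adjustment over all genes tested. That filter used CPM before TMM scaling. The study's model had a batch term that is not named in the labels, and it was left out here. Values written ± after a log2 fold change are standard errors. Members and lists were chosen with earlier results of these data known. All members are named, those called in any comparison and the syndecans with full values, and from each other list the called gene with the largest change in each comparison. Alternatives were DESeq2 1.42.0, its size factors, edgeR's likelihood ratio test, other filters, unstranded counts, 1 fit of all libraries, a replicate block, and leaving out each library. Counts were simulated with 100 genes changed by 2 on the log2 scale and 100 by 1.5. Of those changed by 2, the test recovered 98 (DHT against vehicle, 11528 genes), 92 (PC3 against DHT, 12154 genes) and 98 (PC3 against vehicle, 12293 genes). It made 0, 4 and 0 false calls. Far fewer genes were changed there than were called between the lines, so the simulation does not test the scaling in the PC3 comparisons. Same-numbered DHT and vehicle libraries deviated together (r over 10015 genes of 0.155, 0.236 and 0.217), which pairs them by their counts and not by a label. Same-numbered PC3 and LNCaP libraries did not (-0.206 to 0.083).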

Additional observations from a re-analysis of the deposited data

Results flagged for a closer look

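The reads on the strand opposite to the gene were not used in any comparison as reported, and 2 tested members stood out there over all libraries. For EXTL2 these were 10.8% of its reads (480 reads), and for B3GALT6 4.42% (778 reads), while at most 3.06% of a library's reads lay on the other strand of genes. The cause was not tested.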

How the results depend on the processing

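The counts of called members stayed within 1.5 times of those reported under each alternative except the call on the adjusted p alone, which gave 23 with DHT (10 higher and 13 lower), 9 lower in PC3 against DHT, and 29 against vehicle, 10 of them lower. They were 4, 24 and 23 with no filter on low counts and 4, 22 and 21 with edgeR's own filter, which test more genes. The share of all genes called under these 2 filters is not given here, so these counts have no background beside them. With no filter the added calls were genes under the 3 CPM filter. These were EXTL1 in each comparison, NDST3 and SULF1 in both PC3 comparisons, GPC3 in PC3 against DHT and GPC5 against vehicle. Leaving out 1 library gave 3 calls with DHT (3 lower and 0 higher), 19 to 20 in PC3 against DHT (14 to 15 higher and 5 lower) and 18 to 20 against vehicle (13 higher and 5 to 7 lower). Without PC3 replicate 3 they were 20 and 18. With the replicate number as a block the pairing gave 3, 19 and 19, and only the call of SDC2 in PC3 against DHT was lost, at 0.99. No scaling moved the median of all genes by 0.1 or more on the log2 scale.

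Without vehicle or DHT replicate 1 the fold changes of SULF2 and PAPSS2 rose as given above. With the longest transcript as length, the GPC1 share was 56.2% in PC3, 50.2% with DHT and 41.3% with vehicle, and that of SULF2 in PC3 99.95%. Log2 fold changes near 0 changed sign. With DHT, HS3ST1 was 0.0073 with no filter and 0.0055 with edgeR's filter, and leaving out 1 library gave -0.089 to 0.049 for HS3ST1, -0.11 to 0.0091 for XYLT2, -0.011 to 0.076 for AGRN and -0.042 to 0.14 for EXTL2. In PC3 against DHT, B3GALT6 was -0.00019 with unstranded counts and -0.076 to 0.096 with 1 library left out, and B4GALT7 -0.064 to 0.10. None of these passed the test as reported. Members past the adjusted p as reported that did not pass under an alternative, none of them called, were B3GALT6, GPC4, NDST2 and SLC35B2 with DHT, EXTL3 in PC3 against DHT, and B4GALT7, GLCE and EXTL2 in PC3 against vehicle, with the replicate block among these alternatives for EXTL3, B4GALT7 and GLCE (adjusted p = 0.0733, 0.0568 and 0.0644). SLC35B2 with DHT failed without any 1 library (adjusted p of 0.064 to 0.126). Genes of a few counts per library, among them GPC5, EXTL1 and HS3ST3B1, are limited by depth.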
